A study of Drosophila melanogaster with 6 samples.

Results

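Glutathione transferases (GSTs) and UDP-glycosyltransferases (Ugts) are the main conjugating enzymes of the fly, and their transcripts were compared in whole embryos that carried a mutation of fork head (fkh) and in wild type embryos. The members were every probe set that names 1 gene whose current symbol is Gst followed by D, E, O, S, T or Z, or starts with Ugt. They were 71 probe sets for 69 genes, among 18769 probe sets on the array, of which 13647 name 1 gene and together name 11982 genes. GSTs had 36 probe sets for 34 genes and Ugts 35 probe sets for 35 genes. GstE9 and GstO2 had 2 probe sets each, and GstE8 has no probe set that names it alone and was not analysed here. The rule reads gene symbols and no measured value.

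The fkh embryos carried the fkh6 allele and the wild type embryos were Oregon R, the strain that the labels give for both genotypes. Both were collected at embryonic stage 11, aged at 25 C and sorted with a COPAS embryo sorter. RNA came from 3 independent collections per genotype, with 1 Affymetrix Drosophila Genome 2.0 array each. For in situ hybridization the methods describe fkh6 homozygotes picked with that sorter by the absence of GFP from a marked balancer, while for the array embryos they name the sorter and an earlier protocol. How the allele changes the fkh transcript is not given in the sources used here. Every tissue of the embryo was pooled, so a change in few cells is diluted. All values below are RMA values on a log2 scale.

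GSTs join the tripeptide glutathione to electrophilic compounds, or reduce peroxides with it, and are named by class: Delta (GstD) and Epsilon (GstE) are the large insect classes that grew by tandem duplication, while Omega (GstO), Sigma (GstS), Theta (GstT) and Zeta (GstZ) are shared with vertebrates. Ugts are membrane proteins of the endoplasmic reticulum that move a sugar, mostly glucose in insects, from a UDP-sugar to small lipophilic molecules. Both families are known for handling of plant toxins, insecticides and waste products in midgut, Malpighian tubule and fat body, and some Ugts for odorant clearance in the antenna. Fork head is the fly FoxA transcription factor, with roles in salivary gland and gut.

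The fkh transcript itself measured 10.83, 10.62 and 10.64 in the fkh arrays, against 10.23, 10.11 and 10.28 in the wild type arrays. It was 1.404-fold higher in fkh embryos (log2 fold change 0.49, SE 0.09, adjusted p = 0.012 by limma with Benjamini-Hochberg adjustment), so its level does not check the genotype labels. Marker genes of other tissues and ages also differed. These lists were chosen with earlier results of these data known, so their counts are not an independent check. All 11 measured genes of late muscle and cuticle differentiation were higher in fkh embryos. Their summed linear signal was 8691 to 35080 in fkh arrays and 243.7 to 367.6 in wild type arrays. The 11 measured genes of stage 11 patterning summed to 9919 to 12590 in fkh arrays and 10930 to 11460 in wild type arrays (1 higher, 1 lower). The 1 higher was fkh itself, and the 1 lower was hh (-0.63, adjusted p = 0.0065 by limma). The 8 midgut genes summed to 2279 to 2894 in fkh arrays and 4724 to 4920 in wild type arrays (1 higher, 3 lower). Among them Jon44E, a digestive protease, had the largest fall. It was near the floor of the array in fkh embryos at 4.80, 4.71 and 4.87, against 9.93 to 10.04 in the wild type arrays. The 1 called higher was mex1, at 7.32, 7.69 and 6.86 in fkh arrays and 5.45, 5.79 and 5.89 in wild type arrays (1.58, adjusted p = 0.0041 by limma). Of the 8 midgut genes, 6 had a negative log2 fold change. The 5 Malpighian tubule genes summed to 1256 to 1810 in fkh arrays and 1599 to 1719 in wild type arrays (0 higher and 1 lower by limma at the adjusted threshold, and the same counts at an unadjusted p under 0.05). The 5 fat body genes summed to 5036 to 6436 in fkh arrays and 3879 to 4324 in wild type arrays (1 higher). Most of the fat body sum came from apolpp, the 1 called, with a log2 fold change of 0.50. The other 4 fat body genes had negative values, and the median of the 5 was -0.05. The 5 tracheal genes summed to 3290 to 6637 in fkh arrays and 793.2 to 1038 in wild type arrays (3 higher). Those 3 were serp, verm and Gasp, which is also on the late muscle and cuticle list. The tracheal genes btl (0.30) and vvl (0.42) were not called. The 9 hemocyte genes summed to 4655 to 5674 in fkh arrays and 4286 to 4567 in wild type arrays (3 higher, 1 lower). Higher were Col4a1, vkg and Pxn, and lower was srp, which is also among the midgut genes. The other 5 hemocyte genes were not called. The 8 yolk and amnioserosa genes summed to 7901 to 9512 in fkh arrays and 10820 to 11610 in wild type arrays (1 lower). The part of these differences in the results below was not tested, and age of the embryos and genotype cannot be told apart in this design.

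GST transcripts changed in both directions. A probe set was called changed at a limma adjusted p under 0.05 over all probe sets and a fold change over 1.4, and 6 GST probe sets were higher and 4 lower in fkh embryos, with 26 not called. That is 16.7% higher and 11.1% lower, beside 6.19% higher and 6.13% lower over all probe sets. The called GSTs were 9 genes: GstE1, GstE11, GstE12, GstD3, GstO3 and GstT4 were higher, and GstE5, GstE7 and GstE9 (both probe sets) were lower. Ugts had 2 probe sets higher (Ugt317A1 and Ugt36A1) and 3 lower (Ugt35D1, Ugt37A2 and Ugt35B1), with 30 not called. Called members made up 27.8% of GST and 14.3% of Ugt probe sets, beside 12.3% of all probe sets. Among probe sets that name 1 gene the share was 15.2%. At an unadjusted p under 0.05 with the same fold minimum, 8 GST probe sets were higher and 6 lower, and 3 Ugt probe sets were higher and 5 lower, beside 7.83% higher and 6.85% lower (14.7% in all) over all probe sets. Of the GSTs, 2, 2 and 3 were higher without wild type replicates 1, 2 and 3, and 7 were lower without fkh replicate 2. Of the Ugts, 1 was higher without any 1 of the wild type arrays and 4 without fkh replicate 3. Over all probe sets 1162 were higher with every array, and 696, 761 and 668 without wild type replicates 1, 2 and 3. Without fkh replicates 1, 2 and 3 the counts higher were 1017, 1114 and 1522. In whole embryos, fewer cells of a type and less RNA per cell cannot be told apart.

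The families as a whole stayed near the centre of the array. The median log2 fold change was -0.06 for GSTs (range -2.08 to 1.60) and -0.10 for Ugts (range -1.01 to 1.47), beside -0.08 over all probe sets. The median size of the change, without its sign, was 0.42 for GSTs and 0.18 for Ugts, beside 0.15 over all probe sets. Levels differed between the families: 7 of the 36 GST probe sets (19.4%) and 22 of the 35 Ugt probe sets (62.9%) had a wild type mean below the median of all probe sets, which was 5.36. Above that median 9 of 29 GST and 3 of 13 Ugt probe sets were called, where 18.2% of all probe sets were. Below it 1 of 7 GST and 2 of 22 Ugt probe sets were called, where 6.49% of all probe sets were.

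**Figure D1:**
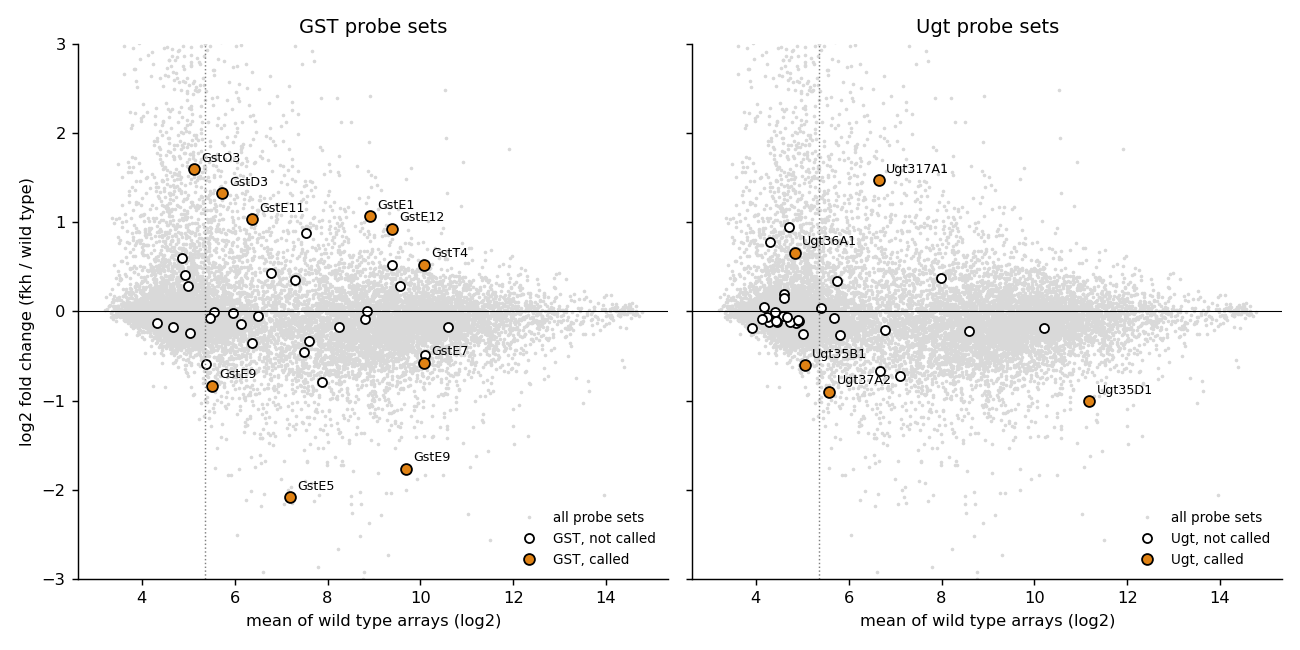
Log2 fold change of fkh over wild type (vertical axis) against the mean of the 3 wild type arrays (horizontal axis, log2) for GST probe sets (left panel) and Ugt probe sets (right panel), with filled points for called members, open points for other members and grey points for all probe sets between -3 and 3. The dotted line marks the median level of 5.36, and most Ugt probe sets lie to its left near a change of 0.

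The Epsilon class held 7 of the 10 called GST probe sets. Of its 14 probe sets, 3 were higher and 4 lower in fkh embryos, with a median size of change of 0.72. The groups did not overlap for 11 of the 14 (78.6%), while they did not overlap for 38.6% of all probe sets. Only 1 of the 14 had a wild type mean below the median of all probe sets. Of all probe sets above that median, 18.2% were called and 48.6% had groups that did not overlap. The counts by direction for the whole GST family were 10 with every fkh array above every wild type array and 9 with every fkh array below, beside 13.5% above and 25.1% below over all probe sets.

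GstE5 carried the largest change of either family in size. It measured 5.15, 5.10 and 5.07 in the fkh arrays, against 7.27, 7.24 and 7.04 in the wild type arrays. The fkh arrays were close together and far below the wild type arrays, at a level under the median of the array, where the size of a fold change depends on background. GstE5 was 4.23-fold lower in fkh embryos (log2 fold change -2.08, SE 0.09, adjusted p = 4.2e-05).

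GstE9 was lower by both of its probe sets. The brighter one measured 7.95, 8.08 and 7.73 in fkh arrays, against 9.59, 9.50 and 9.96 in wild type arrays, a 3.40-fold fall (log2 fold change -1.76, SE 0.15, adjusted p = 6.2e-04). The dimmer one measured 4.69, 4.78 and 4.60 in fkh arrays, against 5.51, 5.49 and 5.56 in wild type arrays, a 1.78-fold fall (-0.83, SE 0.08, adjusted p = 9.3e-04). Both gave the same direction with groups apart. The dimmer one lies close to the background of the array in fkh embryos, so the size of its fold change depends on that background.

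GstE7 had the smallest fall among the called GSTs. Its values were 9.39, 9.72 and 9.41 in fkh arrays and 9.97, 10.19 and 10.09 in wild type arrays, a 1.49-fold fall (-0.57, SE 0.11, adjusted p = 0.016). The fkh arrays lay below the wild type arrays by a narrow gap. Leaving out wild type replicate 2 ended the call (adjusted p = 0.072), as did leaving out replicate 3 (adjusted p = 0.074) and cyclic loess normalization between arrays (adjusted p = 0.067).

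On the higher side, GstE12 measured 10.04, 10.45 and 10.46 in fkh arrays and 9.44, 9.37 and 9.36 in wild type arrays. It was 1.90-fold higher (0.93, SE 0.13, adjusted p = 0.0037). GstE11 measured 6.97, 7.71 and 7.52 in fkh arrays and 6.31, 6.40 and 6.38 in wild type arrays. For both genes the wild type arrays were tightly grouped and the fkh arrays were spread above them. GstE11 was 2.05-fold higher (1.04, SE 0.18, adjusted p = 0.010).

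GstE1 measured 9.67, 10.43 and 9.83 in fkh arrays and 8.56, 9.01 and 9.15 in wild type arrays. All fkh arrays were above all wild type arrays, and both groups were spread. It was 2.10-fold higher in fkh embryos (1.07, SE 0.23, adjusted p = 0.021), and it no longer passed when wild type replicate 1 (adjusted p = 0.075) or 2 (adjusted p = 0.063) was left out.

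**Figure D2:**
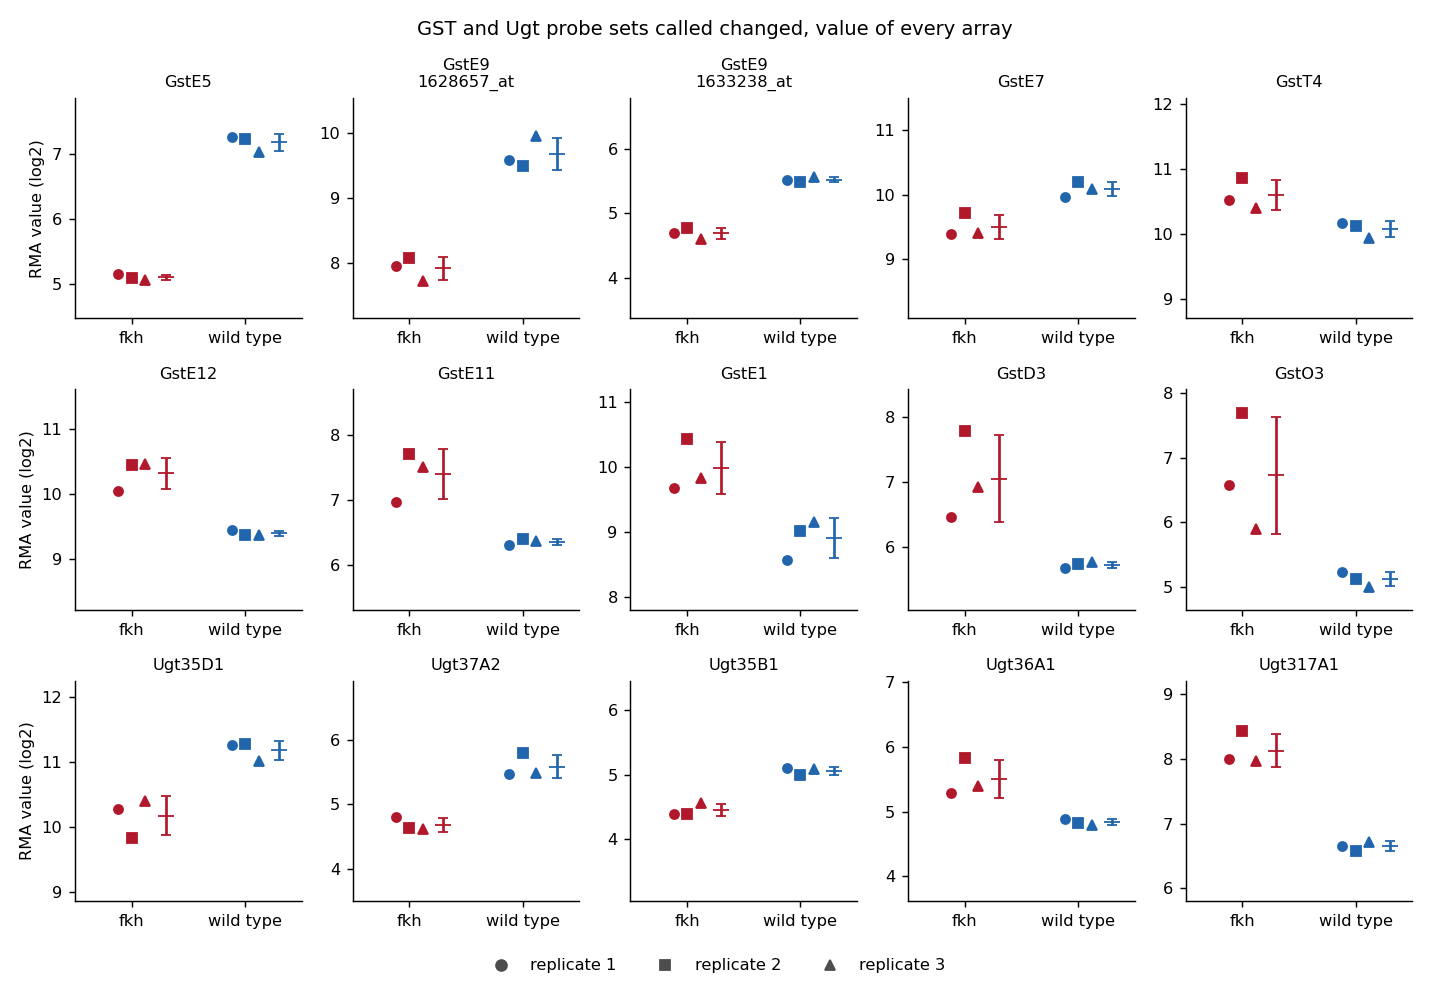
RMA values (vertical axis, log2) of each called GST and Ugt probe set, 1 panel each with the same span of values, with the 3 fkh arrays left of the 3 wild type arrays, points for arrays and lines for the mean and SD of each group. The groups do not overlap in any panel, and the fkh arrays of GstO3 and GstD3 are the most widely spread.

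The remaining Epsilon genes included 4 whose fold change passed 1.4 without passing the adjusted p. GstE3 measured 7.69, 8.96 and 8.61 in fkh arrays and 7.32, 7.86 and 7.46 in wild type arrays (log2 fold change 0.87, adjusted p = 0.11), with overlapping groups. GstE2 measured 5.61, 5.79 and 5.03 in fkh arrays and 4.78, 4.87 and 4.97 in wild type arrays (0.60, adjusted p = 0.074). GstE4 measured 4.65, 4.76 and 4.97 in fkh arrays and 5.85, 5.23 and 5.08 in wild type arrays (-0.59, adjusted p = 0.097). For GstE2 and GstE4 the groups stood just apart. GstE6, at 9.86, 10.42 and 9.45 in fkh arrays and 9.44, 9.31 and 9.40 in wild type arrays, had a log2 fold change of 0.52 (adjusted p = 0.16). GstE13 had the reverse profile, with an adjusted p of 0.037 and a log2 fold change of -0.48, short of the fold minimum. GstE14, known as noppera-bo and needed for ecdysone synthesis, measured 6.27, 5.83 and 5.96 in fkh arrays and 6.66, 6.21 and 6.28 in wild type arrays (-0.36, adjusted p = 0.18).

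For GstE3 and GstE2 the call turned on a single array. GstE3 passed without fkh replicate 1 (1.24, adjusted p = 0.012). GstE2 passed without fkh replicate 3 (0.82, adjusted p = 0.0020). GstE2, GstE6 and GstE13 also passed when limma weighted the arrays.

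Most Epsilon genes lie side by side on chromosome arm 2R. In the RefSeq gene order, GstE10, GstE1 to GstE8 and GstE9 are 10 neighbours, 9 of them measured. Along that order the log2 fold changes were -0.14 for GstE10, 1.07 for GstE1, 0.60 for GstE2, 0.87 for GstE3, -0.59 for GstE4, -2.08 for GstE5, 0.52 for GstE6, -0.57 for GstE7, and -1.76 and -0.83 for GstE9. The run thus held a called rise, that of GstE1, and called falls of GstE5, GstE7 and GstE9. Each change of sign between direct neighbours involved at least 1 gene that was not called. GstE11, GstE12, GstE13 and GstE14 lie outside the run. On arm 2R, 3 of 17 GST probe sets were higher and 4 lower, where 14.8% of all 1-gene probe sets of that arm were called in either direction.

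The Delta class forms the other long run, 10 neighbours on arm 3R. Of 11 GstD probe sets, 1 was higher and none was lower by limma at the adjusted threshold, and 1 was higher and 1 lower at an unadjusted p under 0.05. The share called was 9.09%, close to the 12.3% over all probe sets, and the median log2 fold change was -0.02. In the order of the chromosome the values were -0.02 for GstD10, -0.18 for GstD9, 0.28 for GstD1, 0.41 for GstD2, 1.33 for GstD3, -0.13 for GstD4, -0.80 for GstD5, -0.18 for GstD6, 0.29 for GstD7 and -0.01 for GstD8.

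GstD3, whose protein lacks the amino-terminal stretch of the other Delta enzymes, was the called member. It measured 6.45, 7.78 and 6.92 in fkh arrays and 5.67, 5.73 and 5.76 in wild type arrays. The wild type arrays were nearly equal, the fkh arrays spread over more than 1 log2 unit, and all of them were above wild type. GstD3 was 2.51-fold higher (1.33, SE 0.30, adjusted p = 0.027), and the call was lost without any 1 of the 3 wild type arrays (adjusted p = 0.087 to 0.096).

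GstD5 moved the other way without passing. It measured 6.61, 7.62 and 7.01 in fkh arrays and 7.81, 7.77 and 8.06 in wild type arrays (-0.80, adjusted p = 0.068). The groups stood apart, with fkh replicate 2 close to wild type. Without that array GstD5 passed (-1.07, adjusted p = 0.0059).

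GstD1, the abundant Delta enzyme that detoxifies DDT and is used as a reporter of oxidative stress, measured 9.31, 10.85 and 9.38 in fkh arrays and 9.67, 9.43 and 9.58 in wild type arrays. Only fkh replicate 2 was above wild type, and the other two fkh arrays were below it. Its log2 fold change was 0.28 (adjusted p = 0.67).

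**Figure D3:**
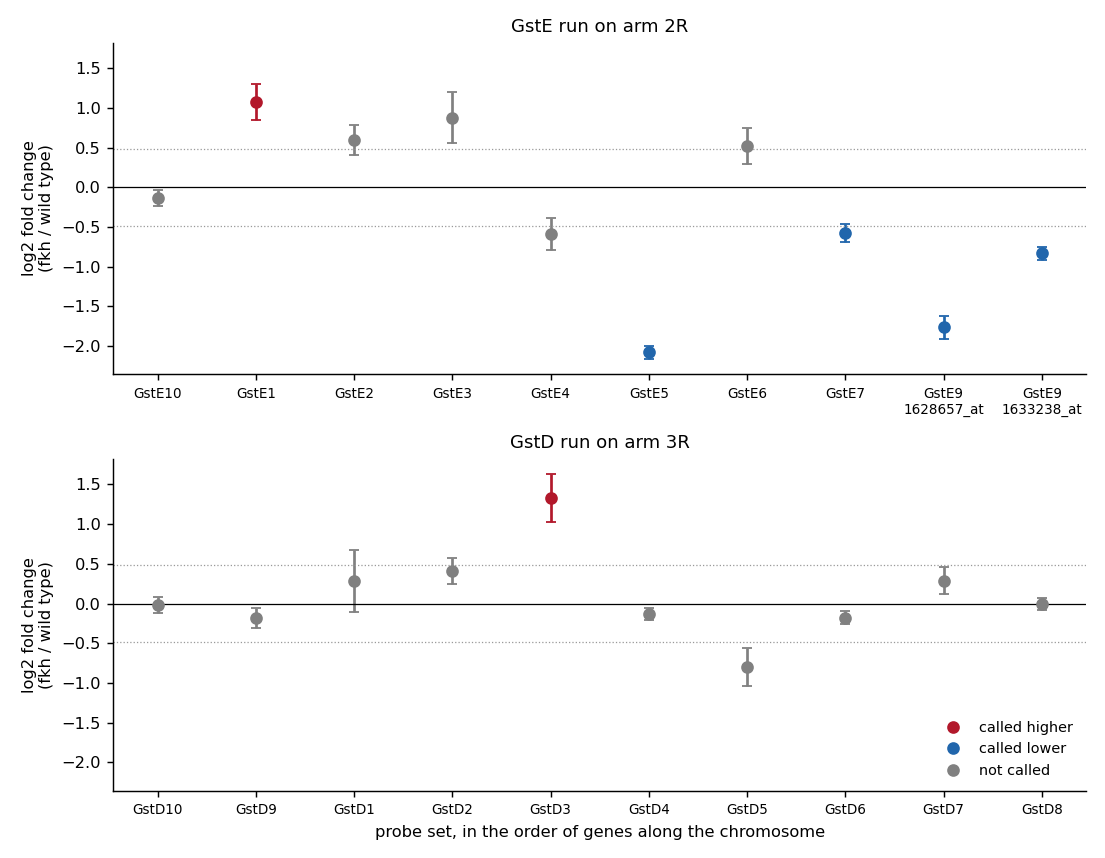
Log2 fold change of fkh over wild type with its standard error (vertical axis) for the probe sets of the GstE run (upper panel) and the GstD run (lower panel), in the order of the genes along the chromosome (horizontal axis), with colours for called higher, called lower and not called. In the GstE run the values lie between -2.08 and 1.07 with GstE1 called higher and GstE5, GstE7 and GstE9 called lower, and in the GstD run GstD3 is the one called.

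GstO3 had the largest rise of the GST family. It measured 6.58, 7.69 and 5.90 in fkh arrays and 5.23, 5.13 and 5.01 in wild type arrays. The wild type values lay under the median of the array, where the size of a fold change depends on background. The fkh arrays differed from each other by more than their lowest differed from wild type. GstO3 was 3.03-fold higher (1.60, SE 0.40, adjusted p = 0.037), and the call was lost without any 1 of the wild type arrays (adjusted p = 0.11 to 0.13), without fkh replicate 1 (adjusted p = 0.078) and under cyclic loess (adjusted p = 0.0504). Both other measured Omega genes overlapped between groups, with log2 fold changes of -0.18 and -0.33 for the probe sets of GstO2 and -0.05 for GstO1.

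GstT4 was the called Theta gene. It measured 10.53, 10.86 and 10.41 in fkh arrays and 10.17, 10.12 and 9.94 in wild type arrays. The groups were apart by a small gap, and GstT4 was 1.44-fold higher (0.52, SE 0.13, adjusted p = 0.037), just over the fold minimum. The call was lost without any 1 of the wild type arrays (adjusted p = 0.089 to 0.14), without fkh replicate 1 (adjusted p = 0.069) and without fkh replicate 2 (log2 fold change 0.39, under the fold minimum). The other Theta genes had log2 fold changes of 0.44 for GstT2, 0.35 for GstT3 and -0.08 for GstT1, and none passed.

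The Zeta enzymes act in tyrosine breakdown, and GstS1 is known from flight muscle. GstZ1 measured 6.83, 7.59 and 6.69 in fkh arrays and 7.53, 7.58 and 7.35 in wild type arrays (-0.45, adjusted p = 0.23). GstZ2 had a log2 fold change of -0.24 (adjusted p = 0.14). GstS1 measured 8.57, 9.19 and 8.82 in fkh arrays and 8.59, 8.90 and 9.06 in wild type arrays (0.01, adjusted p = 0.98), with fully mixed groups.

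The Ugt family held fewer changes, of which Ugt317A1 was the largest. It measured 7.99, 8.42 and 7.96 in fkh arrays and 6.66, 6.58 and 6.72 in wild type arrays. The groups were more than 1 log2 unit apart. Ugt317A1 was 2.77-fold higher (1.47, SE 0.13, adjusted p = 8.4e-04).

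Ugt35D1 had the largest called fall of the family. It measured 10.28, 9.83 and 10.40 in fkh arrays and 11.26, 11.27 and 11.01 in wild type arrays. The groups did not overlap, and Ugt35D1 was 2.01-fold lower (-1.01, SE 0.16, adjusted p = 0.0074).

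Ugt37A2 and Ugt35B1 also fell, at levels near or below the median of the array. Ugt37A2 measured 4.80, 4.63 and 4.62 in fkh arrays and 5.47, 5.79 and 5.49 in wild type arrays, a 1.87-fold fall (-0.90, SE 0.11, adjusted p = 0.0026). Ugt35B1, described in olfactory tissue of the adult antenna, measured 4.40, 4.39 and 4.56 in fkh arrays and 5.10, 4.99 and 5.08 in wild type arrays, a 1.52-fold fall (-0.61, SE 0.08, adjusted p = 0.0034). Values this low lie close to the background of the array, and no detection call was used.

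Ugt36A1 was the other Ugt that rose. It measured 5.28, 5.83 and 5.39 in fkh arrays and 4.89, 4.83 and 4.80 in wild type arrays. At wild type values this far under the median of the array, the size of a fold change depends on background. The wild type arrays were nearly equal and below all fkh arrays, and Ugt36A1 was 1.58-fold higher (0.66, SE 0.14, adjusted p = 0.023). The call was lost without any 1 of the wild type arrays (adjusted p = 0.076 to 0.095).

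Another 4 Ugts passed the fold minimum but not the adjusted p. Ugt37C1 measured 5.69, 6.30 and 4.96 in fkh arrays and 4.75, 4.61 and 4.76 in wild type arrays (0.94, adjusted p = 0.079). Ugt50B3 measured 5.52, 5.69 and 4.04 in fkh arrays and 4.31, 4.27 and 4.33 in wild type arrays (0.78, adjusted p = 0.24). For both of these, fkh replicate 3 was the lowest fkh array, and for Ugt50B3 it lay below wild type. Without that array Ugt37C1 passed (1.29, adjusted p = 0.0044), as did Ugt50B3 (1.30, adjusted p = 1.9e-04).

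The other two leaned downwards. Ugt49B2 measured 6.95, 6.43 and 5.76 in fkh arrays and 6.85, 7.17 and 7.31 in wild type arrays (-0.73, adjusted p = 0.14). Ugt36E1, which acts in olfactory neurons, measured 5.82, 6.54 and 5.68 in fkh arrays and 6.41, 7.07 and 6.58 in wild type arrays (-0.67, adjusted p = 0.13). The groups overlapped for both genes. Ugt49B2 passed without fkh replicate 1 (-1.01, adjusted p = 0.038) and Ugt36E1 without fkh replicate 2 (-0.94, adjusted p = 0.023).

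The remaining 26 Ugt probe sets lay between -0.27 and 0.37, with adjusted p-values of 0.11 to 0.94. Among them Ugt316A1 was bright, at 10.30, 10.18 and 9.59 in fkh arrays and 10.21, 10.14 and 10.28 in wild type arrays (-0.19, adjusted p = 0.53). The remaining 21 GST probe sets lay between -0.48 and 0.44.

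By position, 15 of the 17 Ugt probe sets on arm 3R (88.2%) had a negative log2 fold change, beside 66.0% of all 1-gene probe sets of that arm and 67.0% of all probe sets. Of the 17, 3 were called lower and 0 higher by limma (0 higher and 4 lower at an unadjusted p under 0.05), with a median of -0.11. Over all 1-gene probe sets of that arm, which also carries the fkh gene, the median was -0.08, 9.63% were lower and 7.10% higher. The run of 6 neighbours that includes Ugt35A1 and Ugt35B1 had negative values throughout, between -0.61 and -0.01, with Ugt35B1 the only one called. Their median was -0.07, and 5 of the 6 had a wild type mean below the median of all probe sets. Of all probe sets below that median, 68.6% had a negative value. Ugt317A1 lies on 2R and Ugt36A1 on 2L. Members in runs of neighbours included 2 higher and 4 lower of 27 GST probe sets and 0 higher and 2 lower of 22 Ugt probe sets (0 higher and 3 lower at an unadjusted p under 0.05). Outside the runs, 4 of 9 GST probe sets were higher and 0 lower (the same at an unadjusted p under 0.05), and 2 of 13 Ugt probe sets were higher and 1 lower. Called members were thus 22.2% of GST probe sets in runs and 44.4% outside them, and 9.09% of Ugt probe sets in runs and 23.1% outside them, beside 12.3% of all probe sets.

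The fkh collections differed among themselves in both families. The median SD of a GST probe set was 0.275 in fkh arrays and 0.111 in wild type arrays, and that of a Ugt probe set was 0.139 in fkh arrays and 0.115 in wild type arrays. Over all probe sets it was 0.146 in fkh arrays and 0.0751 in wild type arrays. Most Ugts were dim. Among probe sets above the median level the SD of GSTs was 0.258 in fkh arrays and 0.123 in wild type arrays. For Ugts above that level it was 0.316 in fkh arrays and 0.178 in wild type arrays. For all probe sets above that level it was 0.171 in fkh arrays and 0.075 in wild type arrays. Of the 3 fkh arrays, replicate 2 held the highest value for 26 of the 36 GST probe sets (72.2%) and 13 of the 35 Ugt probe sets (37.1%), beside 22.5% of all probe sets.

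The median GST probe set was -0.11, 0.12 and -0.11 from its wild type mean in fkh replicates 1, 2 and 3. In fkh replicate 2, 15 GST probe sets were over 1.4-fold above their wild type mean and 5 as far below, against 6 above and 9 below in fkh replicate 1 and 6 above and 6 below in fkh replicate 3. Of all 18769 probe sets, 2073 were above and 1746 below in fkh replicate 2. The same counts were 1489 and 1027 in fkh replicate 1, and 1437 and 1918 in fkh replicate 3. No GST or Ugt probe set was that far from its wild type mean in any wild type array, though that mean includes the array itself. Of all probe sets, 25 to 38 were as far above and 12 to 42 as far below in a wild type array. Without fkh replicate 2, 5 GST probe sets were called higher and 7 lower.

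The fkh arrays also differed from each other for other genes. The 12 measured maternal egg transcripts averaged 8.36, 9.18 and 8.13 in the fkh arrays, against 8.47, 8.45 and 8.55 in the wild type arrays. The late muscle and cuticle genes averaged 10.61, 11.11 and 9.12 in the fkh arrays, against 4.43, 4.90 and 4.55 in the wild type arrays. Fkh replicate 2 stood above both other fkh arrays for the maternal list, and fkh replicate 3 stood below both others for the late list. The weights that limma estimated were 1.98, 0.436 and 0.224 for fkh replicates 1, 2 and 3 and 1.55, 1.78 and 1.87 for the wild type arrays. The part of these differences in the GST values was not tested.

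**Figure D4:**
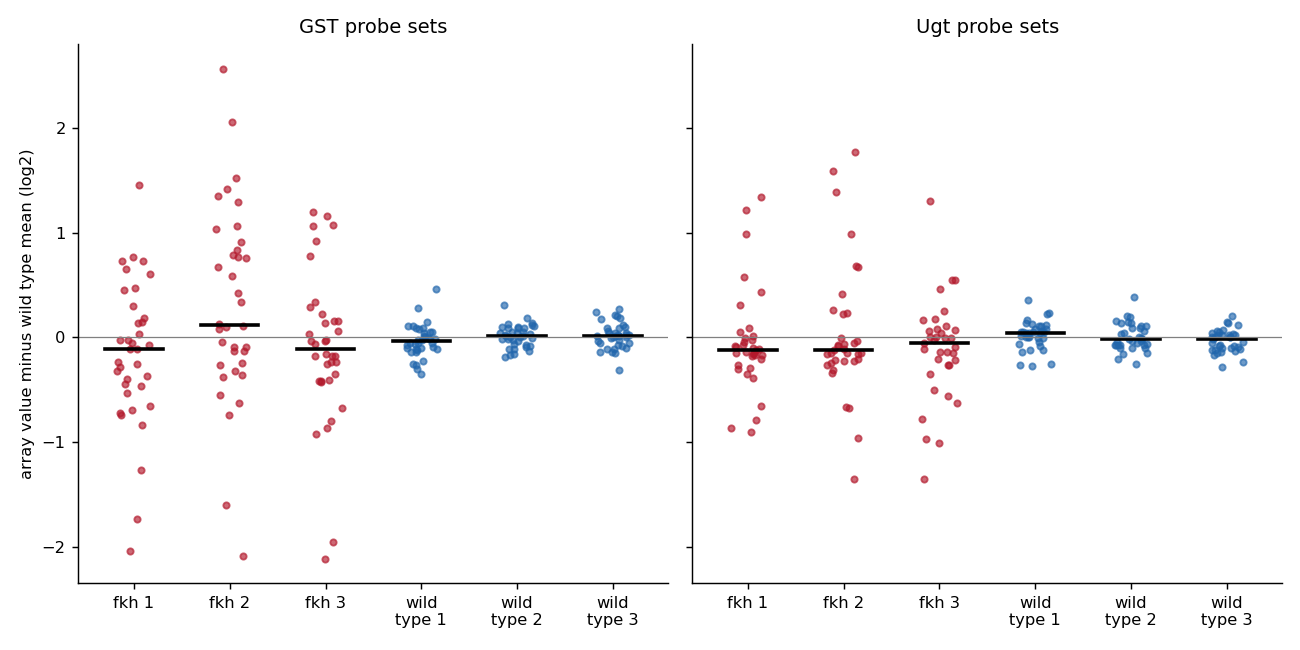
Difference of each GST probe set (left panel) and Ugt probe set (right panel) from its own wild type mean (vertical axis, log2) in every array (horizontal axis), with points for probe sets and bars for medians. GST values spread widely in the fkh arrays, with a median of 0.12 in fkh replicate 2 and -0.11 in fkh replicates 1 and 3, while the wild type arrays stay close to 0.

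Glutathione synthesis starts with glutamate-cysteine ligase. In the fly glutathione is kept reduced by the thioredoxin system, and glutaredoxins draw on it as their reductant. Of 15 listed genes of these steps and related enzymes 13 were measured, and in fkh embryos 3 were higher and 1 lower (30.8%, beside 15.2% of all 1-gene probe sets), with a median log2 fold change of 0.24. Mgstl, the membrane-bound microsomal glutathione transferase that is not related to the cytosolic classes, measured 10.11, 10.68 and 9.90 in fkh arrays and 8.75, 9.32 and 9.19 in wild type arrays. It was 2.21-fold higher (1.14, SE 0.23, adjusted p = 0.017), a call that ended when wild type replicate 1 (adjusted p = 0.062) or 3 (adjusted p = 0.061) was left out. A dimmer probe set of Mgstl gave -0.08 and was not called.

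Gtpx, a peroxidase that removes lipid peroxides, was 2.08-fold higher, at 9.01, 9.68 and 9.65 in fkh arrays and 8.36, 8.41 and 8.39 in wild type arrays (1.06, SE 0.18, adjusted p = 0.0088). Trx2, a thioredoxin, was 1.72-fold higher, at 10.80, 10.81 and 10.88 in fkh arrays and 10.15, 9.94 and 10.05 in wild type arrays (0.78, SE 0.08, adjusted p = 0.0013). Grx1, a glutaredoxin, was 1.91-fold lower, at 8.31, 8.27 and 8.22 in fkh arrays and 9.19, 9.18 and 9.23 in wild type arrays (-0.94, SE 0.07, adjusted p = 3.6e-04). The groups were apart for these 3 genes. Gclc, the catalytic subunit of the ligase, had a log2 fold change of 0.52 (adjusted p = 0.11) and Gclm, its modifier subunit, one of -0.12. Of the gfzf probe sets, whose protein carries a GST domain, the brighter gave -0.30 and was not called. The dimmer gave -0.73 (adjusted p = 0.048 by limma) and was called lower. The count of this list takes the brightest probe set of a gene and leaves that call out.

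All 8 listed regulators of detoxification genes were measured, with 1 higher and 2 lower (37.5%, beside 15.2% of all 1-gene probe sets). Keap1, which holds the stress factor Cnc in check, measured 8.72, 8.43 and 8.56 in fkh arrays and 9.23, 9.10 and 9.18 in wild type arrays, a 1.52-fold fall (-0.60, SE 0.09, adjusted p = 0.0068). Under cyclic loess its log2 fold change was -0.45 (adjusted p = 0.0087), short of the fold minimum. The groups were apart. For cnc and its partner maf-S the log2 fold changes were -0.01 and 0.09. A dimmer probe set of cnc gave -0.25 (adjusted p = 0.053 by limma) and was not called. The forkhead factor foxo was 1.62-fold higher (0.70, adjusted p = 0.035) and tgo, the common partner of bHLH-PAS factors, 1.44-fold lower (-0.52, adjusted p = 0.031). Leaving out 1 array ended the call of foxo for each wild type array, with a fold between 1.44 and 1.75 over all 6 such fits, and that of tgo for 5 of the 6 arrays, with a fold between 1.32 and 1.56. Under cyclic loess the fold of tgo was 1.38, short of the minimum. The call of tgo held in 3 of the 12 alternatives that kept the thresholds.

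Conjugates leave the cell through ABC transporters. Of 14 listed, 11 were measured and 0 were called by limma, beside 15.2% of all 1-gene probe sets, with 1 lower at an unadjusted p under 0.05 with the fold minimum (CG7627, -0.59) and a median of -0.20. Mdr49 had an adjusted p of 0.020 with a log2 fold change of -0.42, short of the fold minimum.

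For the supply of UDP-sugars, not only those that Ugts use, 9 of 12 listed genes were measured, 2 higher and 0 lower (the same at an unadjusted p under 0.05), which is 22.2% beside 15.2% of all 1-gene probe sets, with a median of -0.07. Of the 9 genes, 5 had a negative log2 fold change. Pgm1, the phosphoglucomutase that makes the precursor of UDP-glucose, measured 7.90, 8.88 and 7.57 in fkh arrays and 6.41, 6.50 and 6.42 in wild type arrays. It was 3.19-fold higher (1.67, SE 0.31, adjusted p = 0.012), with fkh replicate 2 again highest, and lost its call without wild type replicate 1 (adjusted p = 0.053) or 3 (adjusted p = 0.055). The other was mmy, which makes UDP-N-acetylglucosamine, at 1.44-fold higher (0.53, SE 0.10, adjusted p = 0.012), which did not pass without wild type replicate 2 (adjusted p = 0.058) or 3 (adjusted p = 0.056). UDP-glucose dehydrogenase, sgl, had an adjusted p of 0.034 with a log2 fold change of 0.28, short of the fold minimum. UGP was dim, with a log2 fold change of -0.24 (adjusted p = 0.080 by limma) and every fkh array below every wild type array.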

How the data were processed

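The deposited log2 values were made by the authors with RMA in Partek (versions not given in the sources used here) for 18769 probe sets on 6 arrays, 3 per genotype. They were used as deposited, with no detection call. Probe sets were named from the array's annotation, and names, chromosome arms and gene order were read from a RefSeq table for assembly GCF_000001215.4. Of the probe sets, 13647 named 1 gene (13544 matched the gene table), 402 several and 4720 none. Genotypes were compared with limma 3.58.1 (R 4.3.3, lmFit and eBayes, no covariates). Benjamini-Hochberg adjustment ran over every probe set on the array. Calls needed an adjusted p below 0.05 together with more than a 1.4-fold change, the fold minimum of the study's methods. All p-values printed as adjusted are from this fit or its alternatives. An exact permutation test of 3 against 3 arrays cannot go below 0.1 (two-sided), so none was used.

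Array values were given for each called member, for up to 4 members per family past the fold minimum that were not called, and for up to 4 called genes of each pathway list. Further members (GstE6, GstE14, GstD1, GstZ1, GstS1, Ugt316A1) were chosen after their values were seen. A pathway gene with several probe sets was counted by its brightest. The members, lists and tests were chosen with earlier results of these data known. The fit was tested on simulated data in which both groups had the same spread. The wider spread of the fkh arrays was therefore not part of that test. Alternatives were cyclic loess, arrays shifted to equal medians of 47 ribosomal protein probe sets, a filter on the dimmest probe sets, array weights, no pooling of the spread, the replicate number as a block, each array left out in turn, other thresholds and the mean of a gene's probe sets. Sequences of the members were not used here. The number of arrays limits the precision.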

Additional observations from a re-analysis of the deposited data

How the results depend on the processing

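The calls of GstE5, both GstE9 probe sets, GstE12, Ugt317A1, Ugt35B1 and Ugt37A2 held under all 12 alternatives that kept the thresholds, and no called member changed sign under any alternative. Leaving out 1 array moved the GST counts to between 2 and 9 higher and 3 and 7 lower, the Ugt counts to 1 to 4 higher and 3 to 4 lower, the 4 pathway lists to 2 to 7 higher and 2 to 3 lower, and all probe sets to 668 to 1522 higher and 705 to 1355 lower. The lowest GST count, 2 higher, came without wild type replicate 1 or 2, and 3 were higher without replicate 3. The family medians lay between -0.14 and -0.02 for GSTs and -0.11 and -0.06 for Ugts over these fits. Cyclic loess gave medians of 0.07 for GSTs and -0.029 for Ugts, 1 pathway gene lower (3 in the fit as deposited) and 690 probe sets lower, and raised the share of calls that were higher to 65.3%, against 50.2%. Ribosomal protein scaling gave a Ugt median of -0.056. Array weights gave 7 GSTs lower and 4 Ugts higher. Without pooling of the spread there was 1 GST, 1 Ugt and 1 pathway gene higher, and 406 probe sets higher and 538 lower. At an unadjusted p 5 Ugts were lower, and without a fold minimum 1795 probe sets were lower. The causes of these shifts were not tested. Below the median level of the array, where 22 of the 35 Ugt probe sets lay, 6.09% of all probe sets were called higher and 0.405% lower, and above it 6.30% were higher and 11.9% lower.

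Deviations of arrays with the same replicate number correlated at 0.072, 0.073 and -0.079 over all probe sets. That is little sign of pairing over the array as a whole, and pairing for single members was not tested. With the replicate number as a block, 7 GSTs were higher and 4 lower, 2 Ugts were higher and 4 lower, and 1168 probe sets were higher and 1069 lower. GstE3 and Ugt36E1 passed in that fit.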
